A study of Mus musculus with 6 samples.

Results

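The 9 complement genes C1qa, C1ra, C1s1, C4b, C3, Cfb, C7, Serping1 and C3ar1 were followed by symbol through single-cell RNA libraries of the mouse aortic root, 9 of the 55402 features listed in each matrix. Each feature identifier matched the gene of that symbol in the GENCODE M21 annotation. All animals were male and aged 24 weeks. The groups were littermate controls (Fbn1 and Klf4 genotypes labelled Control), Marfan mice (Fbn1 C1041G/+ with a wild type Klf4 allele) and Marfan mice labelled as carrying floxed Klf4 (Fbn1 C1041G/+). Fbn1 encodes the matrix protein fibrillin-1, and the series describes the floxed group as carrying an induced deletion of the transcription factor Klf4 that was specific to smooth muscle cells (SMCs). Neither the Cre driver nor the promoter behind the tdTomato lineage marker is stated in the labels. Per the labels, 4 animals of a group were pooled, and their root and proximal ascending aorta were digested and sorted into tdTomato-positive cells of the SMC lineage and lineage-negative cells. This gave 6 libraries, 1 for each of 3 genotypes and 2 fractions.

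Complement is a cascade of plasma and tissue proteins that marks surfaces for clearance and recruits leukocytes. C1q binds the target and activates the proteases C1r and C1s, which cut C4; C3 is the component on which all the activation routes converge, factor B (Cfb) builds the alternative pathway convertase that amplifies C3 cleavage, and C7 takes part in the terminal membrane attack complex. Serping1 encodes C1 inhibitor, which blocks C1r and C1s, and C3ar1 encodes the receptor for the fragment C3a. The liver makes most of the circulating proteins, macrophages are a main source of C1q, and stromal cells of many tissues also make several of the components.

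On GRCm38, C1ra (chr6:124512405-124523443, plus strand) and C1s1 (chr6:124530345-124542359, minus strand) are neighbours, and C3ar1 lies on the same chromosome (chr6:122847138-122856161, minus strand). C4b (chr17:34728380-34743882), Cfb (chr17:34856374-34862518) and C3 (chr17:57203970-57228136) are on chromosome 17, all on the minus strand. C1qa (chr4:136895917-136898803), Serping1 (chr2:84765387-84775444) and C7 (chr15:4988762-5063740) complete the set, also on the minus strand. C4b, C1ra and C1s1 have the close copies C4a, C1rb and C1s2, between which reads may be divided or dropped. C4a had 0 UMIs in the 6 libraries, so the C4b count is uncertain to the extent that the 2 genes share sequence.

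Promoter windows of 300 bases (250 before to 50 after the transcription start, RefSeq on GRCm38.p6) were at hand for 5 of the 9 genes. The windows of the neighbours C1ra and C1s1 and of C3 are shown because these are the members that stood higher in SMCs of the Marfan library than of the control library. They were searched on both strands for a C/EBP site (TTGCNNAA), a gamma-activated site (TTCNNNGAA), an interferon-stimulated response element core (GAAA and GAAA, 2 bases apart) and a kappa-B site (GGGA and TTCC, 2 bases apart), which among 32851 windows of this length occur in 10.8%, 8.30%, 3.44% and 1.47%. Each sequence runs 5′ to 3′ on the strand of the gene, and capitals mark the matches, which do not overlap each other.
C3 (chr17:57228087-57228386, minus strand): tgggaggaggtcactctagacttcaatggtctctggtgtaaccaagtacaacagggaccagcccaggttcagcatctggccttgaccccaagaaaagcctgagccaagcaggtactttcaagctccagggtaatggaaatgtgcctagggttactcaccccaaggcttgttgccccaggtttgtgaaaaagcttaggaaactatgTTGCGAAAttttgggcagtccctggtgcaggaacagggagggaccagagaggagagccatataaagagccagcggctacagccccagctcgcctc
C1ra (chr6:124512371-124512670, plus strand): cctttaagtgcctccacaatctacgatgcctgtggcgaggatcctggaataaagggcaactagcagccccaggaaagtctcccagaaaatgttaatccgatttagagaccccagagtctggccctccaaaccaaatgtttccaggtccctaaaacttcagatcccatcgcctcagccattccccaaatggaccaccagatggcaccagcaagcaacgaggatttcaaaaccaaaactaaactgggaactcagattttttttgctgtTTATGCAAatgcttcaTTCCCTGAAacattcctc
C1s1 (chr6:124542310-124542609, minus strand): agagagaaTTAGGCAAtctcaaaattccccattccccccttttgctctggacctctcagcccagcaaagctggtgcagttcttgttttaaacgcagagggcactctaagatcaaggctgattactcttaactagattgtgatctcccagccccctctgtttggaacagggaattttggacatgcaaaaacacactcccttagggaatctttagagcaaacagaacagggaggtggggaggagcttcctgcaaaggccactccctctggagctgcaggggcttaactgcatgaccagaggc
The C3 window holds a C/EBP match at bases 206 to 213, counted from its 5′ end. The C1ra window holds a C/EBP match at bases 267 to 274 and a gamma-activated match at bases 283 to 291. These begin 16 and 32 bases after the transcription start of the window. The gene as placed above begins at base 124512405, so the 2 annotations differ in its start and most of this window lies within the gene. The C1s1 window shown holds a C/EBP match at bases 9 to 16, and a further C1s1 window (chr6:124542272-124542571) holds none of the 4 motifs. The C7 window holds the gamma-activated match TTCCCAGAA at bases 87 to 95, and the C3ar1 window holds none of the 4 motifs. A match describes letters in the window and is no evidence that a factor binds there.

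Total depth ranged from 47750360 to 95250397 UMIs (unique molecular identifiers, counted RNA molecules) per library, and 39483 cells were kept. The Marfan lineage-positive library stood apart: 39.0% of its barcodes held fewer than 1000 UMIs, and the median of its passing cells was 2101.5 UMIs against 11493 and 13033 in the control and Klf4-floxed-labelled lineage-positive libraries. Klf4 itself was at 30.4, 44.6 and 116 CPM (UMIs of the gene per 1000000 UMIs) in the lineage-positive control, Marfan and Klf4-floxed-labelled libraries. This order goes against a loss of the transcript, so the last is named by its label throughout; reads at the 3′ end need not report on a deleted exon. The reporter transcript was at 226 to 413 CPM in the lineage-positive and at most 6.14 CPM in the lineage-negative libraries. Pairs of libraries shared 9 to 60 barcodes, 0.174% to 0.671% of the smaller one.

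Cells were clustered without any complement gene, and clusters were named from other markers. Levels are CPM, the UMIs of a gene summed over the cells of a class in a library and scaled to the UMIs of all genes there, with exact Poisson 95% intervals in brackets. Each group was 1 library of pooled animals, so no difference has a replicate check and no p-value is given. Ratios compare libraries, not conditions, and their intervals (exact conditional binomial, 95%) cover counting error only. A gene is counted as higher or lower when its CPM differed by 1.5-fold or more and the higher of both values reached 5 CPM. More RNA per cell and more expressing cells cannot be told apart in a sum over a class.

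Fibroblast-like cells held most of the RNA of 6 of the 9 genes in each lineage-negative library, and macrophage-like cells held most of C1qa and C3ar1. Values are given in the order control, Marfan, labelled Klf4-floxed. Of lineage-negative cells, the fibroblast-like made up 74.4%, 55.8% and 67.7% and held 91.0%, 74.1% and 90.2% of C3 UMIs. They held 82.1%, 79.0% and 88.8% of C4b UMIs and 98.9%, 98.2% and 99.1% of C7 UMIs. Their share of Serping1 UMIs was 93.1%, 85.3% and 92.3%. Cfb differed, with 80.5% and 81.2% of UMIs in fibroblast-like cells of the control and Klf4-floxed-labelled libraries but 44.1% in Marfan, where 36.3% lay in unnamed clusters. Macrophage-like cells, 9.94%, 20.1% and 15.5% of lineage-negative cells, held 97.7%, 97.5% and 98.1% of C1qa UMIs and 97.6%, 97.5% and 97.6% of C3ar1 UMIs. They also held 10.8%, 10.5% and 7.45% of C4b UMIs and 14.4%, 14.4% and 12.5% of Cfb UMIs.

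**Figure D1:**
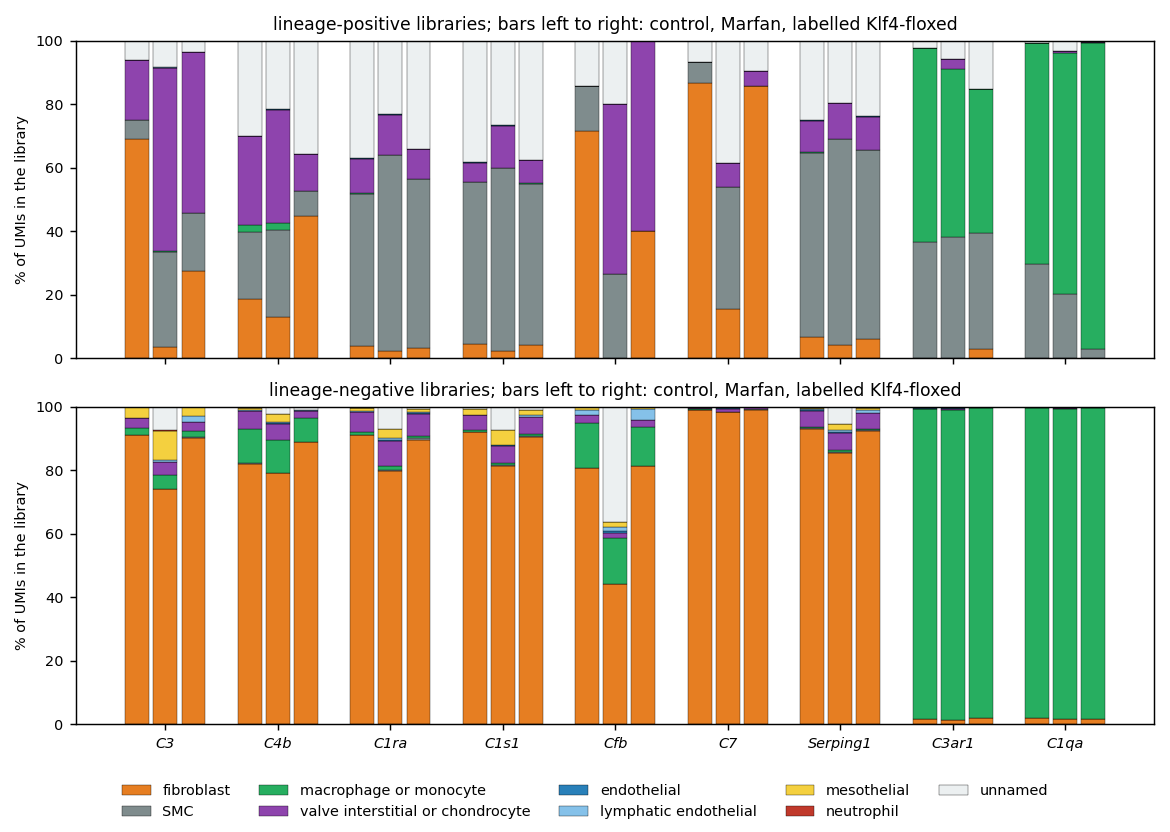
Share of each gene's UMIs (percent, bars stacked from 0) held by each class of cells in the 6 libraries. Fibroblast-like cells dominate C3, C4b, C1ra, C1s1, C7 and Serping1 in the lineage-negative libraries, macrophage-like cells dominate C1qa and C3ar1, and SMC-like cells hold most of the Serping1 UMIs of the lineage-positive libraries, 58.2% to 64.8%.

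In the lineage-positive libraries the distribution was different. SMC-like cells were 77.3%, 89.0% and 79.9% of cells and held 58.2%, 64.8% and 59.6% of Serping1 UMIs, but 6.08%, 29.98% and 18.2% of C3 UMIs. The C3 total of these libraries was 181, 1888 and 578 UMIs. Of them 18.8%, 57.8% and 50.7% came from a valve interstitial or chondrocyte-like group, cluster 9, which made up 2.502%, 2.15% and 3.04% of cells. Fibroblast-like cells within the lineage-positive sort held 69.1%, 3.60% and 27.5%.

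In fibroblast-like cells of the lineage-negative sort (3236, 3926 and 4027 cells), Cfb and C1qa were more than 1.5-fold higher in the Marfan than in the control library, and C3, Cfb, C7 and C1qa were more than 1.5-fold lower in the Klf4-floxed-labelled than in the Marfan library. C3 was at 360.1 CPM [354, 367] in the control library, 486 [479, 492] in Marfan and 305 [299.7, 309.9] in the Klf4-floxed-labelled library. The log2 ratio of Marfan to control was 0.43 [0.40, 0.46], and that of the Klf4-floxed-labelled library to Marfan was -0.67 [-0.70, -0.64]. A C3 UMI was found in 46.1%, 52.7% and 42.5% of these cells, and in 28.3%, 34.5% and 24.6% once each cell was thinned to 2000 UMIs. Endothelial-like cells of the same libraries, where C3 is not a marker, had a C3 UMI in 2.44%, 13.4% and 5.65% of cells, at median depths of 6015, 7430 and 6506 UMIs against 9980.5, 10593 and 11020 in fibroblast-like cells. The control value rests on 1 C3 UMI in 41 cells. Lymphatic endothelial-like cells had a C3 UMI in 9.86%, 28.5% and 17.4% of cells, with C3 at 23.9, 84.6 and 165 CPM.

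Cfb was at 6.32 CPM [5.49, 7.24] in the control library, 12.9 [11.9, 14.0] in Marfan and 5.66 [4.996, 6.396] in the Klf4-floxed-labelled library. The Marfan library was the high one, with log2 ratios of 1.03 [0.80, 1.27] over control and -1.19 [-1.41, -0.98] for the Klf4-floxed-labelled library against it. C7 was at 49.4 CPM [47.0, 51.9], 63.8 [61.4, 66.2] and 29.9 [28.3, 31.5]. Its log2 ratio was 0.37 [0.28, 0.46] for Marfan over control and -1.09 [-1.19, -0.999] for labelled Klf4-floxed over Marfan. C7 was the only member in this class that stood more than 1.5-fold below control in the Klf4-floxed-labelled library, at -0.72 [-0.83, -0.62]; of all genes 4.56% passed in that comparison, 2.02% higher and 2.53% lower, and it shares its libraries with the others.

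The classical pathway proteases and C4b moved less. C4b was at 303, 377 and 325 CPM in control, Marfan and labelled Klf4-floxed, log2 ratios of 0.31 and -0.21. C1s1 was at 113, 155 and 110.2 CPM, log2 ratios of 0.46 and -0.50. C1ra was at 124, 132 and 111 CPM, log2 ratios of 0.09 and -0.25. The inhibitor gene Serping1 was at 1301, 1444 and 1123 CPM, log2 ratios of 0.15 and -0.36, and had a UMI in 92.1% to 94.6% of the fibroblast-like cells. For all 4 genes the Marfan library was the highest and every ratio stayed under 1.5-fold.

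C1qa was detected in fibroblast-like cells at 16.5, 32.7 and 18.04 CPM, log2 ratios of 0.99 and -0.86. This was 0.283%, 0.557% and 0.300% of its level in macrophage-like cells of the same library. Genes that define macrophages were present in fibroblast-like cells at similar low shares of their macrophage level: Lyz2, which encodes lysozyme, at 0.346%, 0.636% and 0.406%, and the receptor gene Csf1r at 0.427%, 0.856% and 0.577%. These shares were also highest in the Marfan library, as was the share of macrophage-like cells, and their part in the C1qa difference was not tested. C3ar1 was at 0.733, 1.22 and 1.15 CPM in fibroblast-like cells, 24 to 53 UMIs in all.

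Counted by the 1.5-fold rule, 2 of the 8 members with enough UMIs were higher in the Marfan than in the control fibroblast-like cells (Cfb and C1qa) and none was lower. Of all genes tested, 3.74% passed in either direction, 1.75% higher and 1.99% lower. In the Klf4-floxed-labelled library against Marfan, 4 of 8 were lower (C3, Cfb, C7 and C1qa), beside 2.63% of all genes in either direction, 1.25% higher and 1.38% lower. The median log2 ratio of the tested members was 0.40 and -0.58 in these comparisons, and that of all genes tested was -0.04 and -0.02. The 2 comparisons share the Marfan library, so a high value there enters both.

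**Figure D2:**
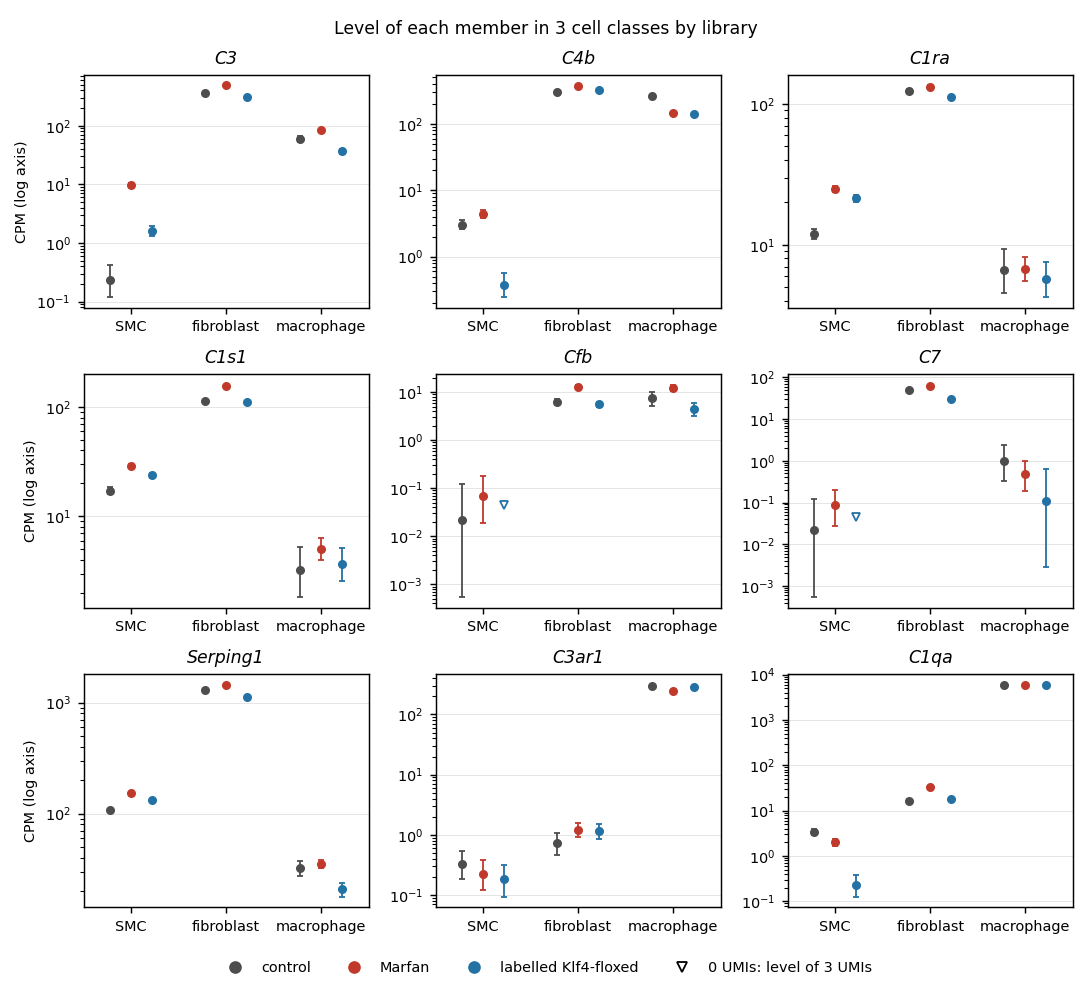
Level of each member (CPM, log axis) in SMC-like, fibroblast-like and macrophage-like cells of the 3 genotypes, with exact Poisson 95% intervals as bars; each point is 1 library. C3 in SMC-like cells runs from 0.238 CPM in control to 9.74 in Marfan and 1.59 in the Klf4-floxed-labelled library, against 305 to 486 in fibroblast-like cells.

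**Figure D3:**
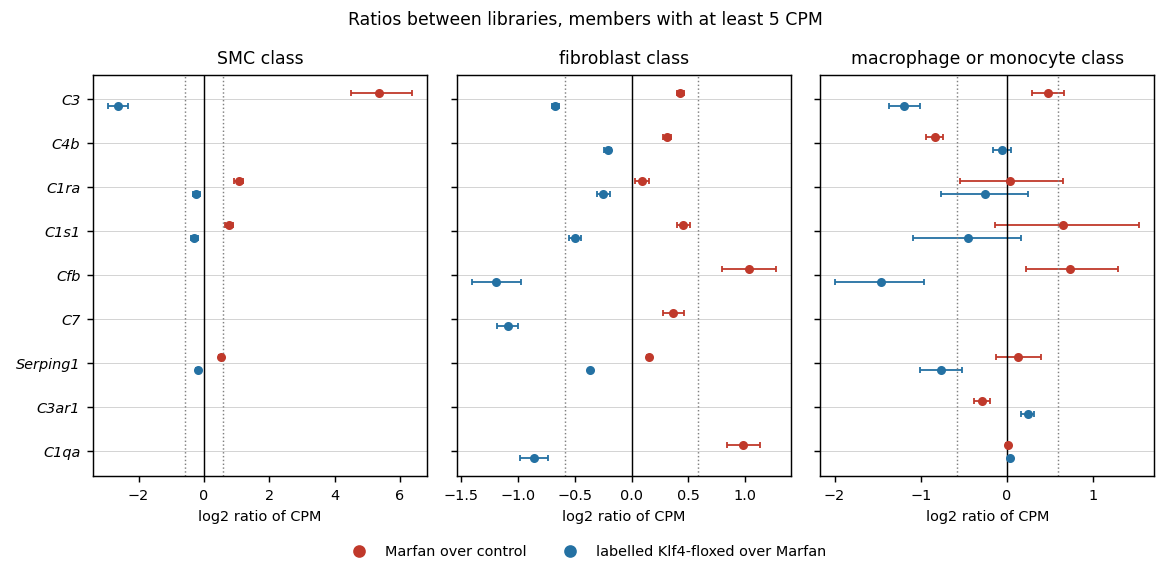
Log2 ratio of CPM for each member and class, Marfan over control and labelled Klf4-floxed over Marfan, with exact conditional binomial 95% intervals that cover counting error only. The ratio of C3 in SMC-like cells lies at 5.36 and -2.62, outside the range of the other members with enough UMIs.

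The fibroblast-like class comprised 3 large clusters and a small one, which carried different complement transcripts. Cluster 5, led by Ebf2, Clec3b, Scara5 and Pi16, held 27.5%, 34.7% and 24.8% of the class and had the highest C3. There C3 was at 683 CPM [666, 701] in the control library, 1104 [1087, 1122] in Marfan and 873 [855, 893] in the Klf4-floxed-labelled library, log2 ratios of 0.69 [0.65, 0.74] and -0.34 [-0.38, -0.30]. Cluster 4, led by Hsd11b1, Vegfd and Gdf10, had C3 at 391.6 [379, 404], 301 [291, 311] and 298 [288, 308] CPM, so its control library was the highest. Cluster 1, led by Adamts19, Prss35 and Cyp2e1, had C3 at 125, 115 and 84.7 CPM. The higher C3 of the whole class in the Marfan library thus came with a higher level within cluster 5 and a larger share of cells in it, and not with higher levels in clusters 1 and 4. In cluster 4 the fibroblast genes Pi16, at 626, 171 and 196 CPM, and Dpt, at 913, 572 and 511 CPM, were also highest in control. In cluster 5 Pi16 was at 915, 1199 and 947 CPM and Dpt at 1170, 1185 and 1165 CPM. Whether cluster 4 held the same kinds of cells in each library was not tested.

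C4b divided the clusters in another way. In cluster 1 it was at 426, 437 and 398 CPM and in cluster 5 at 247 [237, 258], 519 [508, 531] and 351 [339, 363]. In cluster 4 it was at 152 [145, 160.4], 96.0 [90.4, 102] and 57.5 [53.2, 62.2]. The log2 ratio of Marfan to control was 1.07 [1.003, 1.14] in cluster 5 and -0.67 [-0.78, -0.55] in cluster 4, with intervals on opposite sides of 0. Pi16 and Dpt in cluster 4 were also lower in Marfan than in control, as given above, and their part was not tested. A small interferon-rich cluster 13, led by Gbp10, Ifi44 and Cxcl10, had C4b at 552, 479.5 and 617 CPM.

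Cfb and C7 were found mainly in clusters 4 and 5. Cfb in cluster 5 was at 9.97 [7.99, 12.3], 28.5 [25.8, 31.4] and 12.1 [9.94, 14.5] CPM, log2 ratios of 1.51 [1.18, 1.87] and -1.24 [-1.55, -0.93], whereas in cluster 4 it was at 10.4, 10.7 and 10.1 CPM. C7 in cluster 5 was at 86.5, 138 and 84.99 CPM in cluster 4 at 76.1, 58.2 and 38.4 CPM, and in cluster 1 at 6.35 to 9.44 CPM. C1s1 was at 183, 277 and 255 CPM in cluster 5 and C1ra at 189, 222 and 224 CPM. In cluster 1 both were low, with C1s1 at 15.5 to 24.4 CPM and C1ra at 34.0 to 43.6 CPM. Serping1 was likewise at 375 to 409.7 CPM in cluster 1 and 1877 to 2177 CPM in clusters 4 and 5.

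When cluster 5 was divided further, its interferon-rich portion (sub-cluster s3, led by H2-Q7 and Rsad2) held 7, 279 and 70 cells, or 0.786%, 20.5% and 7.02% of the cluster. In that sub-cluster C3 was at 1595 CPM in Marfan and 1455 in the Klf4-floxed-labelled library, C4b at 749.7 and 887, and Cfb at 62.6 and 12.0. The other sub-clusters did not share a single order of libraries. In sub-cluster s0, led by S1pr3 and Sparcl1 (210, 455 and 239 cells), C3 was at 721 [683, 761], 1249.9 [1218, 1283] and 967 [925, 1011] CPM, and C4b at 319 [294, 346], 726 [702, 752] and 624 [590.1, 659]. In sub-cluster s2, marked by Dpp4, C3 was at 1152, 1594 and 1545 CPM. The Klf4-floxed-labelled library was the highest in sub-cluster s1, with C3 at 195, 254 and 436 CPM, and in s5, at 317, 435 and 594 CPM. In s4 the intervals of the 3 libraries overlapped, at 329, 295 and 298 CPM. Sub-cluster s6, with Postn among its leading genes, went the other way, with C3 at 1639.9 [1566, 1717] in the control library, 252 [221, 287] in Marfan and 1423 [1351, 1498] in the Klf4-floxed-labelled library, from 78, 66 and 76 cells.

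**Figure D4:**
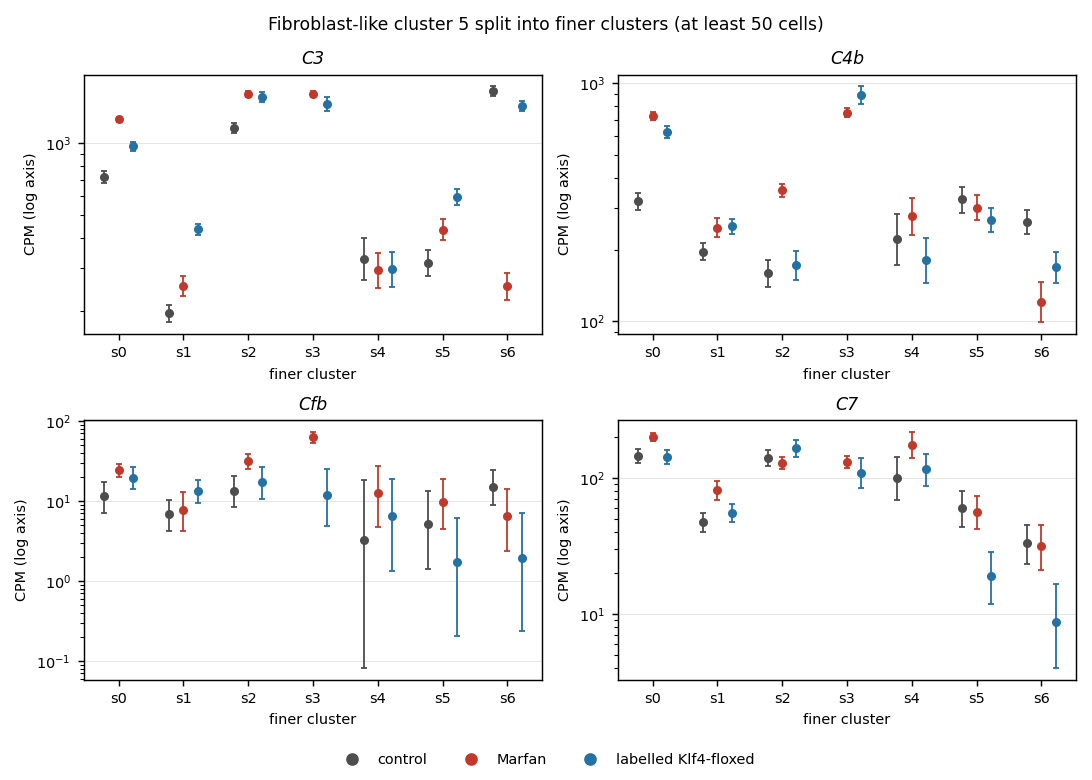
Level of C3, C4b and Cfb (CPM, log axis) in the sub-clusters of fibroblast-like cluster 5, with exact Poisson 95% intervals. Sub-cluster s0 is highest in the Marfan library for C3 (1249.9 CPM) and C4b (726 CPM), and sub-cluster s6 is lowest there for C3 (252 CPM).

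In SMC-like cells of the lineage-positive sort (4016, 9727 and 4816 cells), C3, C1ra and C1s1 were higher in the Marfan library than in control, and C3 was lower again in the Klf4-floxed-labelled library. C3 stayed rare: 11 UMIs in control, 566 in Marfan and 105 in the Klf4-floxed-labelled library, or 0.238 CPM [0.119, 0.426], 9.74 [8.96, 10.6] and 1.59 [1.30, 1.92]. The 3 intervals do not overlap, and the log2 ratios were 5.36 [4.51, 6.37] and -2.62 [-2.93, -2.31]. A C3 UMI was found in 0.249%, 2.80% and 0.727% of cells, and after thinning to 2000 UMIs in 0.102%, 1.41% and 0.192%. C1qa, a macrophage gene, had a UMI in 0.697%, 0.925% and 0.270% of the same cells.

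The C3 UMIs were unevenly spread over SMC-like cells. In the Marfan library the top 1% of cells held 69.3% of them, with up to 23 in a cell. In the Klf4-floxed-labelled library a single cell held 52 of the 105. Of the 566 Marfan UMIs, 219 came from cluster 0, whose cells had a median of 1337 UMIs and were 57.0% of the class there against 3.76% and 5.23% in the other libraries. Another 216 came from the modulated SMC-like cluster 8. Cluster 0 had 0 C3 UMIs in control, which allows up to 4.37 CPM (3 counts of that cluster), and was at 24.7 CPM [21.5, 28.2] in Marfan and 1.496 [0.181, 5.41] in the Klf4-floxed-labelled library. The fibroblast genes Dpt and Pdgfra were there at 1.46, 12.6 and 4.49 CPM and at 10.2, 11.3 and 8.23 CPM. Macrophage genes Lyz2 and Csf1r were at 2.92, 10.4 and 0 CPM and at 0, 0.338 and 0.748 CPM. Their part in the C3 of cluster 0 was not tested. Without cluster 0, a setting chosen after the data were seen, the log2 ratios were 4.87 and -2.15.

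Among the classical pathway genes of SMC-like cells, C1ra was at 12.0 CPM [11.02, 13.04], 25.0 [23.7, 26.3] and 21.3 [20.2, 22.5], log2 ratios of 1.06 [0.92, 1.20] and -0.23 [-0.34, -0.12]. C1s1 was at 17.1 [16.0, 18.4], 28.9 [27.5, 30.3] and 23.7 [22.5, 24.9] CPM, log2 ratios of 0.75 [0.63, 0.88] and -0.29 [-0.39, -0.19]. Control was the low library for both. Serping1 was at 107, 152 and 134 CPM, log2 ratios of 0.51 [0.46, 0.56] and -0.19 [-0.23, -0.14], just under 1.5-fold for Marfan over control. C4b was under 5 CPM in this class, at 3.05, 4.39 and 0.378 CPM (141, 255 and 25 UMIs), with the Klf4-floxed-labelled library the low one. C1qa was also lowest in that library, at 3.35, 2.03 and 0.227 CPM, and the summed macrophage markers were at 7.27, 6.76 and 2.75 CPM. Summed fibroblast markers were at 469, 625 and 592 CPM, and the single fibroblast gene Pdgfra at 5.86, 9.52 and 9.25 CPM. Other fibroblast genes had another order, with Dpt at 1.51, 2.31 and 0.968 CPM and Pi16 at 0.173, 0.516 and 0.182 CPM. The part of macrophage and fibroblast RNA in these differences was not tested. Cfb had 1, 4 and 0 UMIs and C7 had 1, 5 and 0 UMIs, where 0 allows up to 0.0454 CPM; C3ar1 had 12 to 15 UMIs.

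By the 1.5-fold rule 3 of the 4 members with enough UMIs were higher in Marfan than in control SMC-like cells (C3, C1ra and C1s1), beside 6.63% of all genes in either direction, 3.69% higher and 2.94% lower. Against Marfan, 1 of 4 was lower in the Klf4-floxed-labelled library (C3), beside 0.923% of all genes in either direction, 0.358% higher and 0.565% lower. Against control, 1 member was higher in the Klf4-floxed-labelled library (C1ra, 0.83 [0.69, 0.97]), beside 6.16% in either direction, 3.6% higher and 2.55% lower. The difference in C1ra between Marfan and control was present within clusters too: C1ra was at 18.9, 29.1 and 26.8 CPM in cluster 3 and 7.45, 12.0 and 14.0 in cluster 6. Modulated SMC-like cluster 8 held 2.02%, 22.5% and 26.9% of the UMIs of the class. The part of this shift in the class levels of C1ra and C1s1 was not tested. In cluster 7, which resembled SMCs but stayed unnamed because cardiomyocyte genes led it (Corin, Tnnt2), C1ra was at 41.0, 74.8 and 87.8 CPM, C1s1 at 57.0, 109 and 112 CPM and Serping1 at 205, 368 and 344 CPM. C3 in cluster 7 was at 1.06 [0.528, 1.89], 19.5 [16.3, 23.0] and 2.05 [1.27, 3.13] CPM. In these cells too the Marfan library was the high one for C3, while C1ra and C1s1 were no lower in the Klf4-floxed-labelled library.

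Valve interstitial or chondrocyte-like cells (cluster 9), led by Chad and Comp, occurred in both sort fractions. In the lineage-positive fraction (130, 235 and 183 cells) C3 was at 26.2 CPM [18.1, 36.6], 508 [478, 539] and 163 [144, 182], log2 ratios of 4.28 [3.79, 4.82] and -1.64 [-1.83, -1.46]. In the lineage-negative fraction it was at 93.8 [84.5, 104], 167 [157, 177] and 85.2 [77.2, 93.9] CPM, log2 ratios of 0.83 [0.66, 1.004] and -0.97 [-1.14, -0.81]. In both fractions Marfan was the high library. The lineage-positive cells carried the reporter transcript at 401, 427 and 256 CPM, and the lineage-negative cells at 2.07 to 6.45 CPM. The fibroblast gene Dpt was at 89.4, 98.3 and 58.8 CPM and Pi16 at 5.39, 1.40 and 1.66 CPM in the lineage-positive cells. Interferon-induced Isg15 was at 58.6, 313 and 140.0 CPM in the same cells. Dpt and Isg15 were highest in Marfan, as C3 was, and Pi16 was highest in control. The part of fibroblast RNA or of an interferon response in the C3 difference was not tested. Most other ways of clustering divided these cells. The cluster was recovered in 1 of 8, and across the 8 the cluster that held most of its cells had C3 at 1.67 to 14.9 times the control level in Marfan.

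C4b in the lineage-positive cells of cluster 9 followed a different order, at 146 CPM [126, 168] in the control library, 153 [137, 171] in Marfan and 19.98 [14.0, 27.7] in the Klf4-floxed-labelled library (189, 329 and 36 UMIs). The log2 ratio was 0.07 [-0.19, 0.34] for Marfan over control and -2.94 [-3.48, -2.44] for labelled Klf4-floxed over Marfan. The same library was the low one in lineage-negative cells of cluster 9, at 76.3 against 174 and 155 CPM, in cluster 7, at 10.8 against 19.2 and 28.3 CPM, and in cluster 8, at 0.563 against 12.8 and 4.58 CPM. The control value of cluster 8 rests on 67 cells. The fibroblast gene Dpt was at 11.8, 0.764 and 1.69 CPM in that cluster, and its part was not tested. C1qa in the lineage-positive cluster 9 was at 0.771 to 1.40 CPM. C1s1 there was at 72.4 [58.5, 88.6], 177 [159, 195] and 126 [110.1, 143] CPM, C1ra at 97.9, 136 and 139 CPM and Serping1 at 646, 717 and 861 CPM, none of which was lowest in the Klf4-floxed-labelled library.

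Macrophage-like cells (432, 1417 and 920 cells) carried C1qa and C3ar1 at levels under 1.5-fold apart in the 3 genotypes, and differed more in C4b, C3 and Cfb. C1qa was at 5837 CPM [5770.1, 5904], 5872 [5833, 5911] and 6004 [5953, 6055], log2 ratios of 0.01 and 0.03. C3ar1 was at 299 [284, 315], 245 [237, 253] and 288 [277, 299.6] CPM, log2 ratios of -0.29 [-0.38, -0.20] and 0.24 [0.16, 0.31], with Marfan the low library. C4b was at 261 [247, 275] CPM in control against 146 [139.7, 152] and 140.0 [132, 148], so control was the high one, log2 ratios of -0.84 [-0.94, -0.74] and -0.06 [-0.16, 0.04].

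C3 in macrophage-like cells was at 60.4 [53.7, 67.6], 83.7 [79.1, 88.4] and 36.7 [32.8, 40.9] CPM, log2 ratios of 0.47 [0.29, 0.66] and -1.19 [-1.37, -1.01]. Cfb was at 7.42 [5.22, 10.2], 12.3 [10.6, 14.2] and 4.47 [3.20, 6.09] CPM, log2 ratios of 0.73 [0.21, 1.28] and -1.46 [-1.99, -0.96]. For both, Marfan was the high library, as in fibroblast-like cells. C3 stood at 16.8%, 17.2% and 12.0% of its fibroblast level, C4b at 86.1%, 38.7% and 43.0% and Cfb at 117%, 95.2% and 79.0%. Fibroblast markers such as Dpt and Pdgfra were in macrophage-like cells at 1.59% to 2.69% of their fibroblast level. Serping1, at 32.3, 35.4 and 20.8 CPM, stood at 1.85% to 2.48% of its fibroblast level, C7 at 0.374% to 2.03%, C1s1 at 2.84% to 3.35% and C1ra at 5.12% to 5.32%. C7 was thus below the marker shares in the Marfan (0.738%) and Klf4-floxed-labelled libraries, on 7 UMIs and 1 UMI. C1s1 and C1ra were above them, with C1s1 at 16 UMIs in control, or 3.21 CPM [1.83, 5.21]. No interval was computed for these shares, so small distances from the marker shares may be counting error.

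By the 1.5-fold rule 2 of the 8 members with enough UMIs were higher in Marfan than in control macrophage-like cells (Cfb, and C1s1 on 75 against 16 UMIs) and 1 was lower (C4b), beside 13.6% of all genes in either direction, 4.39% higher and 9.17% lower. The interval of the C1s1 ratio includes 0, at 0.65 [-0.14, 1.53]. In the Klf4-floxed-labelled library against Marfan 3 were lower (C3, Cfb and Serping1), beside 7.16% of all genes in either direction, 3.61% higher and 3.55% lower. Against control 4 were lower there (C4b, C3, Cfb and Serping1), beside 8.91% in either direction, 2.82% higher and 6.09% lower. Of these, C3 (-0.72) stayed past 1.5-fold in 5 of 13 alternatives and came as near 0 as -0.0018, and Serping1 (-0.63) changed sign in 4 of 13, up to 0.49. Serping1 against Marfan (-0.77) also changed sign in 4 of 13, up to 0.45. The median log2 ratio of the tested members was 0.08 and -0.35, and that of all genes tested was -0.08 and 0.02.

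The macrophage-like class joined cells whose proportions differed between libraries. Cluster 11, led by Cd209f, Folr2, Cd163, Fcna and Timd4, genes of resident tissue macrophages, was 53.7%, 22.9% and 35.9% of the class. Cluster 10, led by Slamf7, Cxcl9 and Cd72, was 42.1%, 73.4% and 60.5%. C4b separated them, at 478 [452, 506], 572 [545, 599] and 364 [343, 387] CPM in cluster 11 and 24.5, 35.6 and 33.1 CPM in cluster 10, so control was the highest for the class but not within either cluster. C3ar1 was at 397, 385 and 437 CPM in cluster 11 and 198, 219 and 231 CPM in cluster 10. C1qa was at 6948, 8543 and 7655 CPM and at 4715, 5268 and 5502 CPM. The lower C3ar1 of the Marfan class accompanied its smaller share of cluster 11. Within clusters the log2 ratio of C3ar1 to control was 0.15 [-0.01, 0.30] in cluster 10 and -0.04 [-0.17, 0.08] in cluster 11.

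C3 had ratios of opposite sign in the 2 macrophage-like clusters, and both ratios came near 0 under other settings. In cluster 10 it was at 42.6 [34.1, 52.6], 101 [95.1, 107] and 47.7 [42.0, 53.9] CPM, a log2 ratio of Marfan to control of 1.24 [0.93, 1.58]. In cluster 11 it was at 81.4 [70.8, 93.2], 40.6 [33.8, 48.4] and 22.8 [17.7, 29.0] CPM, a log2 ratio of -1.004 [-1.33, -0.68]. The ratio in cluster 10 depended on the cells admitted, at -0.036 with cells of at least 500 UMIs and -0.069 with at most 5% mitochondrial UMIs. The ratio in cluster 11 shrank to -0.085 with cells thinned to 2000 UMIs. Cluster 11 was recovered in 4 of 8 other clusterings, and across the 8 the cluster that held most of its cells had C3 in Marfan at 0.448 to 1.40 times the control level. Cfb in cluster 10 was at 2.94, 13.2 and 4.86 CPM and in cluster 11 at 12.0, 12.7 and 4.77 CPM.

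Of the 47 other complement genes listed, few had enough UMIs to compare. In fibroblast-like cells 1.75% of all genes were higher and 1.99% lower in Marfan than in control. Of the 12 complement genes tested there, 4 were higher and none lower. These were C2, which encodes the protease that C4b joins in the classical convertase, at 29.1 against 11.9 CPM (log2 ratio 1.29 [1.12, 1.46]), Masp1, a lectin pathway protease, at 7.80 against 4.58 CPM (0.77 [0.49, 1.06]), and C1qb and C1qc (both 0.94), which like C1qa are macrophage genes. Of 13 tested against Marfan in the Klf4-floxed-labelled library, C1qb (-0.81) and C1qc (-0.59) were lower and none was higher. Of all genes, 1.38% were lower and 1.25% higher in that comparison. In macrophage-like cells 4.39% of all genes were higher and 9.17% lower in Marfan than in control. Of the 18 complement genes tested there, 1 was higher, Clu (0.59), and 5 were lower. These included the ficolin gene Fcna (-1.55), the C3b receptor gene Vsig4 (-1.48), the scavenger collectin gene Colec12 (-1.58) and the regulator gene Cd55 (-0.92), all compared in a class with a smaller share of cluster 11. In the Klf4-floxed-labelled library against Marfan, 1 of 17 was higher, Vsig4 (0.64), beside 3.61% of all genes. In SMC-like cells 1 of 8 was lower in Marfan than in control, Cd55 (-0.68), and 1 of 7 was higher in the Klf4-floxed-labelled library than in Marfan, Colec11 (0.59). Of all genes, 2.94% were lower in the first of these comparisons and 0.358% higher in the second.

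A list of 14 genes of inflammation and the acute phase was read beside the members, chosen like the other lists with earlier results known. The shares of all genes that passed in the same comparisons are those given above: in SMC-like cells 3.69% higher and 2.94% lower for Marfan against control and 0.358% higher and 0.565% lower for the Klf4-floxed-labelled library against Marfan, in fibroblast-like cells 1.75% higher and 1.99% lower, then 1.25% higher and 1.38% lower, and in macrophage-like cells 4.39% higher and 9.17% lower, then 3.61% higher and 3.55% lower. In SMC-like cells 4 of 7 tested were higher in Marfan than in control: Lcn2, which encodes the acute phase protein lipocalin-2, at 542 against 1 UMIs, the receptor gene Osmr (1.27), the transcription factor gene Cebpd (0.90) and Socs3 (0.79). The same 4 were lower in the Klf4-floxed-labelled library than in Marfan, at -3.22, -0.70, -0.85 and -0.60. In fibroblast-like cells 6 of 13 were higher in Marfan than in control, among them Il6 (23.2 against 7.30 CPM, 1.67 [1.46, 1.88]) and Lcn2 (1.13), and against Marfan 5 were lower and 1 higher in the Klf4-floxed-labelled library. Interferon response genes, a further list of 14, did not follow this order in fibroblast-like cells: 4 of 14 were lower in Marfan than in control and 3 of 14 higher in the Klf4-floxed-labelled library than in Marfan. In SMC-like cells 4 of 11 were higher in Marfan than in control, and 2 of 11 were lower in the Klf4-floxed-labelled library than in Marfan, Irf7 (-1.39) and Ifi27l2a (-1.77). In macrophage-like cells 4 of 14 interferon genes were higher and 1 lower in Marfan than in control, and 3 of 14 were lower in the Klf4-floxed-labelled library than in Marfan. Of 12 inflammation genes tested there, 1 was higher and 3 were lower in Marfan than in control, and 2 were higher and 1 lower in the Klf4-floxed-labelled library than in Marfan, the lower one being Il6 (-1.50).

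Across 53 cluster-by-library profiles the members formed pairs of similar pattern. These correlations describe profiles that share libraries and are given without a test. Pearson's r was 0.92 for C1qa with C3ar1, 0.92 for C1ra with C1s1, 0.91 for C1ra with Serping1, 0.80 for C3 with C4b and 0.79 for C3 with Cfb, and lowest for Serping1 with C3ar1 at -0.64. Among 10346 genes the profiles nearest to C3 were those of Mmp19 (0.89), Xdh (0.88) and Cygb (0.87), the nearest to C4b were Igf1 (0.88) and Dpt (0.87), and the nearest to C7 were 1700019D03Rik (0.90) and Scn7a (0.90). The nearest to C1qa were C1qb (0.996) and C1qc (0.99), which encode the other chains of C1q.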

How the data were processed

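The deposited values were raw counts of UMIs per gene and cell barcode, made with Cell Ranger 6.1.2 on Chromium 3′ version 3 libraries, per the file headers. Reads were placed on mm10, per the submitters' processing notes. Which annotation and barcode calling settings were used is not stated there. The 9 members and all gene lists were chosen with earlier results of these data known. Genes named in the text were the 9 members, the other complement genes at least 1.5-fold apart, examples from the inflammation and interferon lists (some genes are not reported here), and the genes most like a member by Pearson's r over clusters of at least 50 cells.

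Cells below 1000 UMIs or 500 genes, or above 10% mitochondrial UMIs, were left out. Doublets were scored with Scrublet in scanpy 1.11.5 and removed, 70 to 1171 cells per library; where its threshold marked under 0.5% of cells, the highest scores were taken in place of it, 0.8% for each 1000 cells. Cells were clustered on 2000 variable genes and 30 principal components by the Leiden method at resolution 1 (leidenalg 0.10.2), without the 56 listed complement genes and without batch integration. Clusters were named from other markers, and the conditions that left a cluster unnamed were set after the data were seen. Names rebuilt in this way may differ from those of the study. The SMC class joined SMC-like and modulated SMC-like clusters. Counts were summed per class and library and scaled to CPM. Intervals are exact Poisson, exact conditional binomial or Clopper-Pearson at 95% (scipy 1.17.1) and cover counting error only; a count of 0 allows 3 counts. The ratio, its interval and the fold rule were tested on simulated Poisson counts. That test did not cover clustering, naming, doublet removal or variation between animals. The 18 alternatives tried, 2 of them added after the data were seen, concern scaling, cell filters, doublets, clustering, class membership, thinning and the threshold. The code ran in Python 3.11.15.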

Additional observations from a re-analysis of the deposited data

Results flagged for a closer look

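Pairs of clusters of a class differed in direction between the Marfan and the control library. C3 had a log2 ratio of 1.24 [0.93, 1.58] in macrophage-like cluster 10, led by Slamf7 and Cxcl9, and of -1.004 [-1.33, -0.68] in macrophage-like cluster 11, led by Folr2 and Cd163. C4b had a log2 ratio of -0.67 [-0.78, -0.55] in fibroblast-like cluster 4, led by Hsd11b1 and Vegfd, and of 1.07 [1.003, 1.14] in fibroblast-like cluster 5, led by Clec3b and Pi16. Under other settings the C3 ratio in cluster 10 was as low as -0.036 with at least 500 UMIs per cell and -0.069 with at most 5% mitochondrial UMIs, and that in cluster 11 as small as -0.085 with cells thinned. Cluster 11 was recovered in 4 of 8 other clusterings, with C3 in Marfan at 0.448 to 1.40 times control in the cluster that held most of its cells. The C4b ratio in cluster 5 was 1.02 to 1.31 under the alternatives, and that in cluster 4 was not computed under them. The intervals cover counting error only, each group was 1 library, and the difference between the clusters was not tested in either case. The clusters were defined without complement genes. In cluster 4 Pi16 was at 626 CPM in control and 171 in Marfan, and Dpt at 913 and 572 CPM. Whether this cluster held the same kinds of cells in both libraries was not tested.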

How the results depend on the processing

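No paired analysis was possible because each group was 1 library and no label ties libraries of different genotypes. Of 93 ratios of members, 43 were past 1.5-fold, and 25 of these stayed past it under every alternative that gave a value. The 93 include chosen genes in clusters 5, 9, 10 and 11. They also include C4b in SMC-like cells, under 5 CPM, at -3.54 for labelled Klf4-floxed over Marfan and -3.01 over control. The 43 are therefore not a count by the rule used above, and no share of all genes was computed for them. In SMC-like cells the log2 ratio of C3 was 3.16 to 6.84 for Marfan over control and -3.46 to -1.92 for labelled Klf4-floxed over Marfan. The causes of the changes below were not tested.

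For the counts here and in the next paragraph, the share of all genes under the same alternative was not computed. A changed count can therefore not be read as particular to the members. Under the main settings 6.63% of all genes passed in SMC-like cells for Marfan against control and 0.923% for labelled Klf4-floxed against Marfan. In SMC-like cells the count for Marfan against control, 3 members, was 6 when each cell counted alike, 5 with at least 4000 UMIs per cell and 6 with no minimum level. The count for labelled Klf4-floxed against Marfan, 1 member, was 3 when each cell counted alike and 5 with no minimum level. It was 2 with mitochondrial and ribosomal genes left out, at least 500 or at least 4000 UMIs, at most 20% mitochondrial UMIs, doublets kept, resolution 0.5, complement genes kept in the clustering, fractions clustered apart, all lineage-positive cells, or the unnamed SMC cluster 7 added.

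A fold of 2 left 1 of 2 fibroblast-like members for Marfan against control and 2 of 4 for labelled Klf4-floxed against Marfan. Under the main settings 3.74% and 2.63% of all genes passed in these comparisons. In macrophage-like cells the count for Marfan against control, 3, was 0 with at least 500 UMIs, at most 20% mitochondrial UMIs or a fold of 2, 1 with at least 4000 UMIs or at most 5% mitochondrial UMIs, and 5 with doublets kept or cells thinned. Of all genes 13.6% passed there under the main settings.

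Directions changed for 4 ratios past 1.5-fold. In macrophage-like cells C1s1 for Marfan over control was -0.077 with at least 4000 UMIs. Serping1 for labelled Klf4-floxed over Marfan was 0.11 with at least 500 UMIs, 0.45 with at least 4000, 0.15 with at most 5% and 0.037 with at most 20% mitochondrial UMIs. Serping1 over control was 0.49 with at least 4000 UMIs, 0.27 with at most 5% mitochondrial UMIs, 0.20 with doublets kept and 0.017 with fractions clustered apart. C3 in cluster 10 for Marfan over control was -0.036 with at least 500 UMIs and -0.069 with at most 5% mitochondrial UMIs. Ratios under 1.5-fold changed sign too, among them C1ra in macrophage-like cells, at -1.32 to 0.30 for Marfan over control and -0.27 to 1.12 for labelled Klf4-floxed over Marfan. C4b in SMC-like cells, under 1.5-fold for Marfan over control at 0.53, was -0.11 without cluster 0. Depth limits Cfb, C7 and C3ar1 in SMC-like cells, where each had at most 15 UMIs in a library.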

Other observations

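Complement transcripts were also high in cell groups outside the 3 classes. Cluster 15, led by Il11, Cxcl5, Il6 and Csf3, had 225 cells, 220 of them in the Marfan lineage-negative library, and stayed unnamed. Its Cfb was at 78.9 CPM [71.8, 86.4] from 460 UMIs, beside 12.9 CPM in fibroblast-like cells of that library. C3 was at 347 CPM [332, 363] in these cells, C4b at 59.1 CPM [53.1, 65.7] and Serping1 at 607 CPM [587, 627].

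Mesothelial-like cells, which cover the outer surface of organs, had C3 at 1569.5 CPM [1426, 1723] in control (18 cells), 1461 [1405, 1518] in Marfan (125 cells) and 855 [779, 935] in the library labelled Klf4-floxed (50 cells). Their C4b was at 275, 280.2 and 76.1 CPM and their C7 at 7.15, 0.563 and 3.62 CPM, from 1 to 2 UMIs. They held 3.39%, 9.15% and 3.04% of the C3 UMIs of the lineage-negative libraries. Neutrophil-like cells of the Marfan library (201 cells) had C3 at 244 CPM [204, 289.5], and the interferon-rich SMC-like cluster 18 of that genotype (52 cells) had C3 at 136 CPM [102, 179] and Serping1 at 338 CPM [282, 402].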
